A study of Mus musculus with 6 samples.

Results

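The DNA replication genes described here are 45 genes chosen by symbol: those that license origins, open and copy the DNA, supply nucleotides, rebuild chromatin and guard the fork. All 45 were found among the 14455 gene symbols with a value, and each was listed in all 4 libraries, so none was lost to a filter on low values. The RNA came from sorted LSK cells of mouse marrow, named for lacking lineage markers and carrying Sca-1 and c-Kit, a population of stem cells and early multipotent progenitors. All mice were C57BL/6 and all cells were taken after pI-pC, the double-stranded RNA used to induce the deletion. The 4 groups were WT and Setd2 KO cells taken 4 weeks after induction (young) and WT and Setd2 KO cells taken 8 months after it (old), with 1 total RNA library each. Setd2 encodes a histone methyltransferase, and its KO was an inducible conditional deletion per the series' design and labels. Neither names the Cre driver or says how many mice were pooled. With 1 library per group there was no spread between replicates, so every difference describes these libraries alone, and no test was possible.

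Replication begins when the origin recognition complex, with Cdc6 and Cdt1, loads the ring of 6 proteins Mcm2 to Mcm7 onto DNA in G1. In S phase Cdc45 and the GINS complex turn the ring into an active helicase, polymerase alpha with primase starts each strand, and polymerases delta and epsilon extend it on the Pcna clamp. Fen1 and Lig1 trim and join the pieces of the lagging strand. Transcription of most of these genes is switched on at the G1/S boundary by E2F factors, and in bone marrow the long-term stem cells divide seldom while the progenitors beside them divide often. In bulk RNA, fewer cells of a type and less RNA per cell cannot be told apart.

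The sequences below are examples of matches in the promoters of some members. RefSeq promoter windows (250 bases before to 50 after the start, GRCm38.p6) matched 37 of the 45 members. The E2F letters searched were TTTCCCGC, TTTCGCGC, TTTGCCGC and TTTGGCGC on both strands, and 16 of 37 members (43.2%) held at least 1 of them. Among all 27025 genes with a window the share was 2.60%, and among the 9470 genes with a window and a value here it was 4.72%. The letters CCAAT were in 23 of 37 members (62.2%) and in 42.8% of genes with a value, and TTTGAA, the letters of the cell cycle homology region, in 4 of 37 (10.8%) and in 14.3%. By role the E2F letters were in 7 of 9 licensing members, 4 of 6 polymerase and primase members, 2 of 6 of the clamp group, and in none of the 3 RPA and 5 nucleotide supply members. A match is a description of letters, not a bound site. Stretches of 30 bases around a match are printed for members of 5 roles, with the letters in capitals. Each reads 5′ to 3′ on the strand of the gene.
Mcm3 (chr1:20820275-20820304, minus strand): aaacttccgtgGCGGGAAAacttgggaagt
Mcm5 (chr8:75109345-75109374, plus strand): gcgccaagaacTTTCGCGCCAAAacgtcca
Mcm6 (chr1:128359797-128359826, minus strand): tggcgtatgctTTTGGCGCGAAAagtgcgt
Mcm7 (chr5:138172030-138172059, minus strand): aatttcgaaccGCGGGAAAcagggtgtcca
Cdc6 (chr11:98908002-98908031, plus strand): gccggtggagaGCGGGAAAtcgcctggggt
Orc1 (chr4:108579416-108579445, plus strand): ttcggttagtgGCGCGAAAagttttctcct
Gins3 (chr8:95633507-95633536, plus strand): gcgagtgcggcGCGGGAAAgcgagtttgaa
Pola1 (chrX:93632275-93632304, minus strand): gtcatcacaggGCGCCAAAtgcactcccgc
Rfc3 (chr5:151651200-151651229, minus strand): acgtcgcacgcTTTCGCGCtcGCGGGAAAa
Uhrf1 (chr17:56304117-56304146, plus strand): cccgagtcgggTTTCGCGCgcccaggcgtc
In Mcm5 and Mcm6 an E2F match on one strand runs into a match on the other, and in Rfc3 a pair of matches faces each other across the start. Fen1 and Rpa1, the members that differed most between old KO and old WT, held no E2F letters. The stretches shown for them mark TTCAAA, the reverse complement of TTTGAA, in Fen1 and CCAAT in Rpa1.
Fen1 (chr19:10204500-10204529, minus strand): aacgcgaaggttTTCAAAgtgcaccctgtg
Rpa1 (chr11:75348408-75348437, minus strand): gccgcgcggtagCCAATgcggtggctatcg

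The files hold FPKM, a level per kilobase of transcript that allows genes to be compared, and values in the text are FPKM scaled between libraries. Differences are of log2(scaled FPKM + 1), which understates the change of low genes. Where 4 values of a gene follow each other, they are those of young WT, young KO, old WT, old KO, in that order. Judged by how far apart the low values lie, a transcript of an assumed 2 kb at an FPKM of 20 carried a counting error of 5.11% (WT) and 5.26% (KO) in young cells and 3.74% (WT) and 3.72% (KO) in old cells. At an FPKM of 5 it was 10.2%, 10.5%, 7.48% and 7.44%. These cover counting alone. The sort genes Kit and Ly6a were listed in all 4 libraries, Kit between 41.1 and 61.0 and Ly6a between 3.17 and 8.80. Xist was listed in both old libraries and neither young one, and the Y-linked gene Eif2s3y in both young libraries and neither old one, so age and sex cannot be told apart here. Gene-level Setd2 was 14.1 (WT) and 12.4 (KO) in young cells and 15.3 (WT) and 15.5 (KO) in old cells. RNA outside deleted exons is counted in that value, so it checks nothing about the labels.

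The replication genes were well expressed and nearly level across the 4 libraries. Their median level was 18.6 (WT) and 18.4 (KO) in young cells and 18.7 (WT) and 17.3 (KO) in old cells, where all listed genes had medians of 5.33, 5.39, 5.53 and 5.44. The summed level of the 45 genes was 1219, 1236, 1260 and 1203 in that order. Levels ran from 3.36 for Gins2 in young KO to 110 for Rrm1 in the same library. The order of the genes was much the same in every library, with a Spearman rho between 0.947 and 0.985 over the 45 genes for the 6 pairs of libraries. That is a description, since all genes of a library share its depth and scaling.

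**Figure D1:**
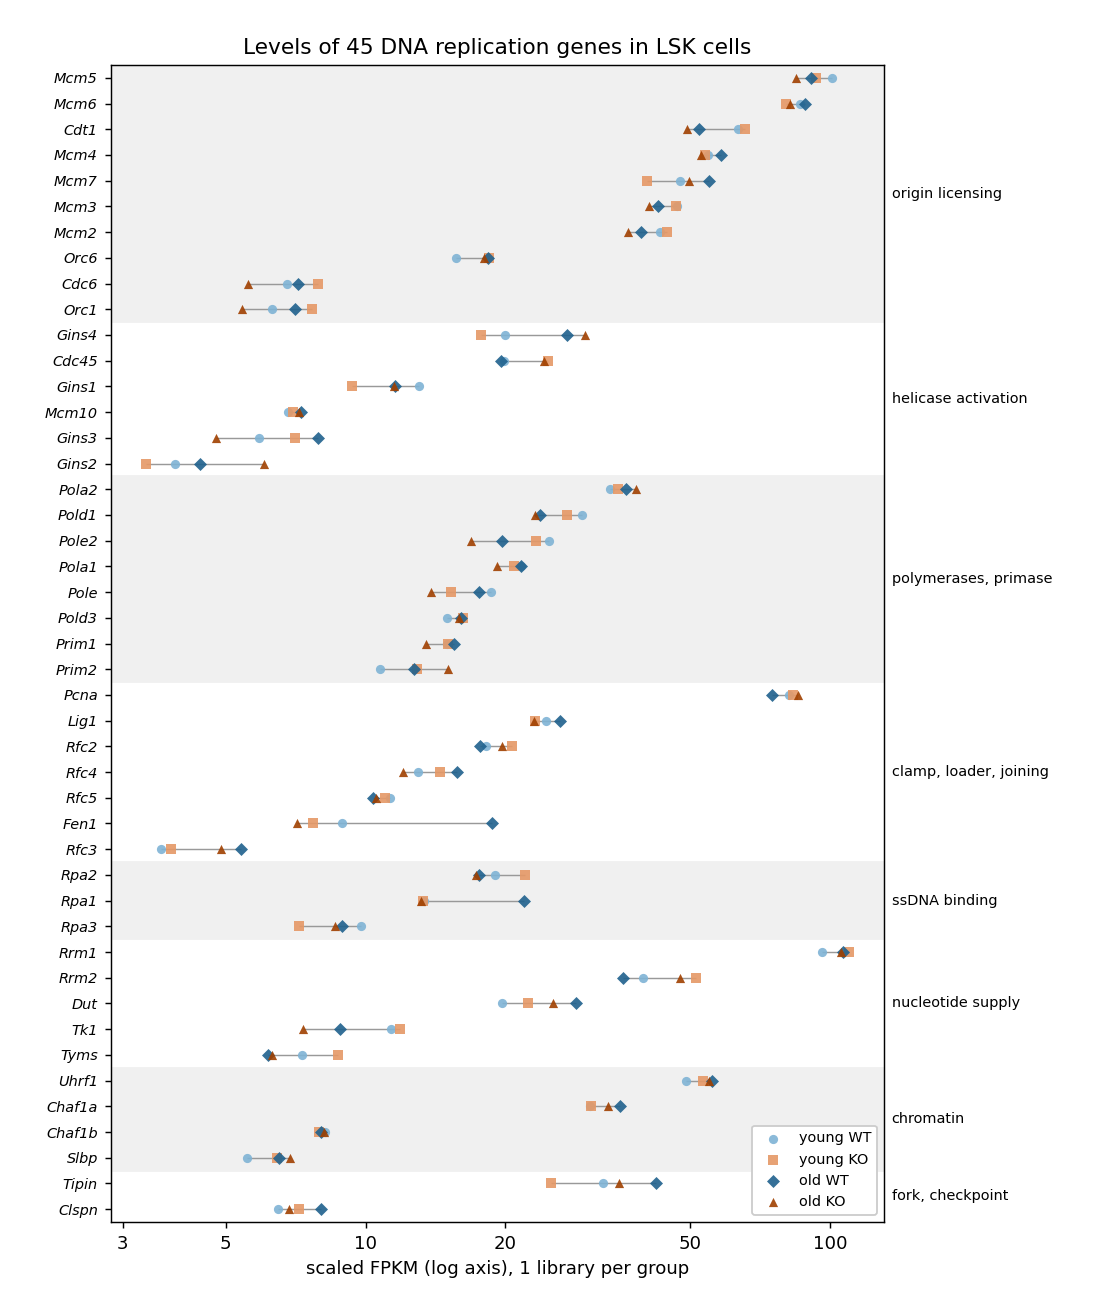
Scaled FPKM (log axis) of the 45 replication genes, grouped by role, with 1 point per library and a line from the lowest to the highest. Most lines are short, and the longest is that of Fen1, which lay at 18.7 in old WT and between 7.12 and 8.91 in the other 3 libraries.

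In young cells, which ask what loss of Setd2 changed 4 weeks after induction, 0 of 45 members were 1.5-fold higher in KO and 0 were 1.5-fold lower. Of all 12409 genes measured, 4.13% were 1.5-fold higher and 3.64% lower. The members ran from -0.44 for Gins1 to 0.37 for Rrm2 on the log2 scale, with a median of 0.03 against 0.00 for all genes measured. Of the 45, 26 lay above 0 and 19 below, and 41 (91.1%) lay within 1.25-fold of level, where 75.5% of all genes measured and 81.3% of those reaching 5 in either library did. Without scaling the median of all genes moved by 0.10 to -0.10, and 17 members lay above 0 and 28 below. Relative to all genes the members' median was 0.03 either way.

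In old cells, which ask the same 8 months after induction, 3 of 45 members were 1.5-fold lower in KO and 0 were 1.5-fold higher. Of all 12478 genes measured, 6.48% were 1.5-fold lower and 5.51% higher, so the members' count (6.67% of 45) was near that of genes at large. The 3 were Fen1, Rpa1 and Gins3, and Fen1 alone was past 2-fold, where 2.66% of all genes measured were. Among the members 33 lay below 0 and 12 above, at a median of -0.08, while 50.3% of all genes measured lay above 0 at a median of 0.00. The split stayed near 33 to 12 under each scaling, with 33 below without scaling and 34 with upper-quartile scaling. The shift was small: 38 of 45 (84.4%) lay within 1.25-fold, where 69.9% of all genes measured and 74.2% of those reaching 5 in either library did. Of the genes reaching 5, 54.5% lay above 0, at a median of 0.03. The 2 KO comparisons share no library. Of the 45 members, 8 were higher and 15 lower at both ages, 18 were higher in young and lower in old KO, and 4 the reverse. The same split was not counted over all genes measured, so it is not read as a trait of the members. Most of these differences lay within 1.25-fold of level.

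**Figure D2:**
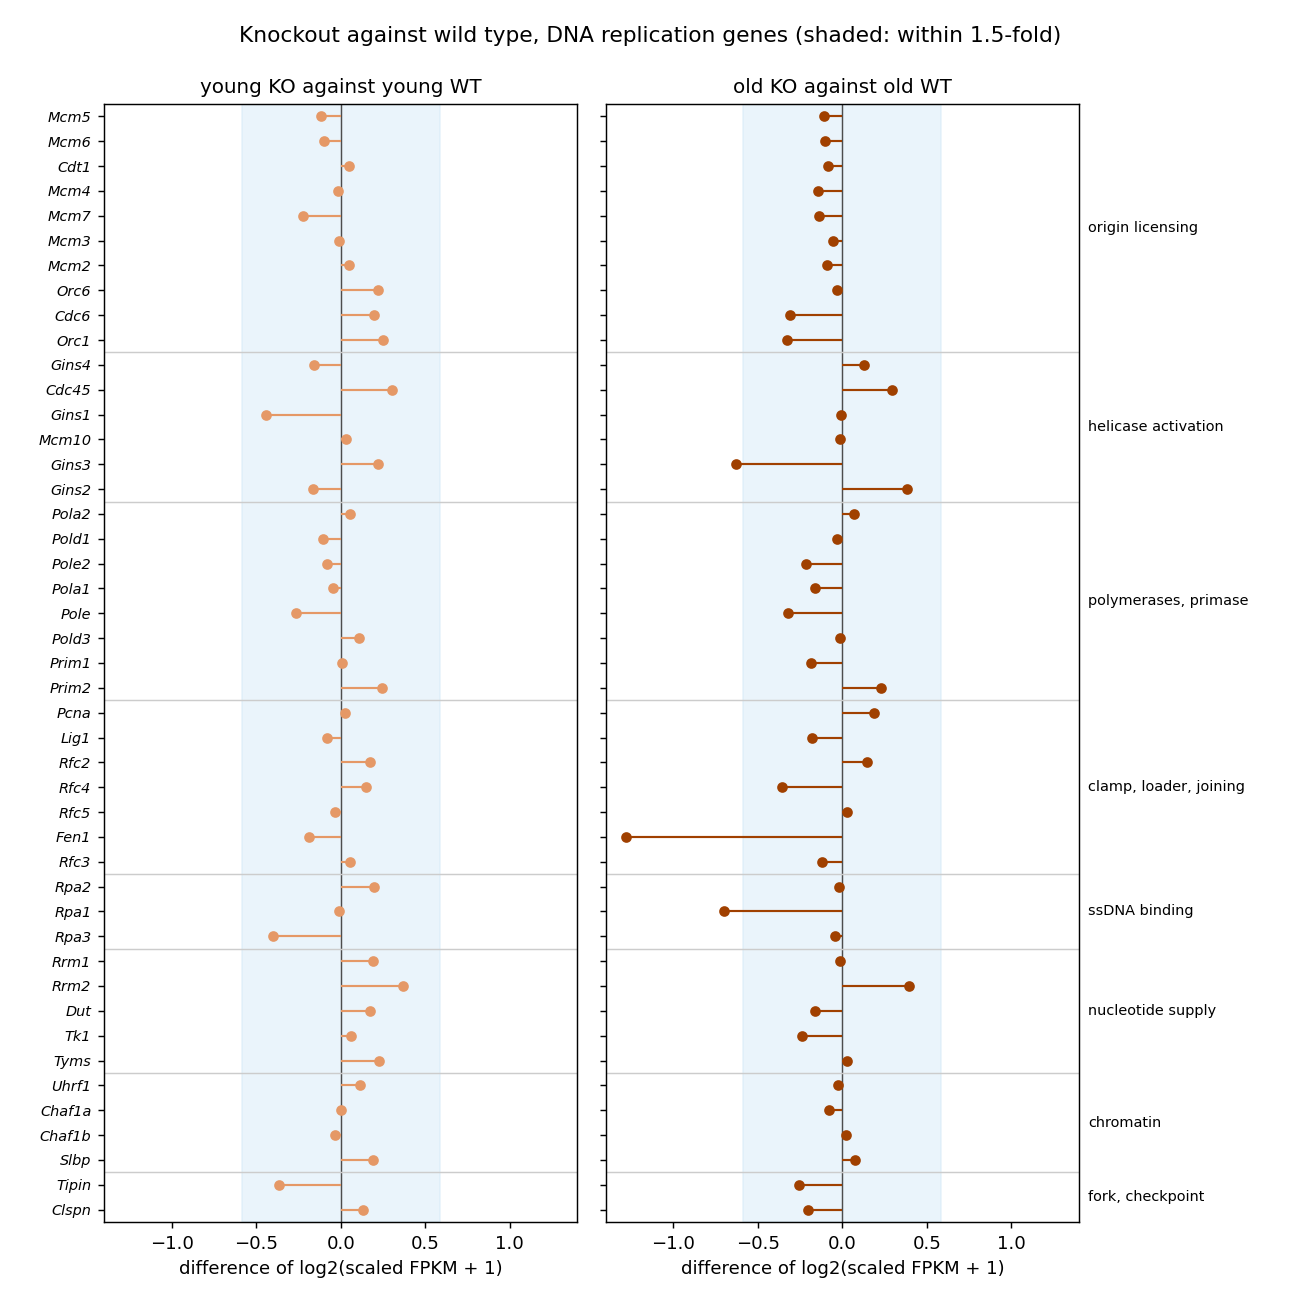
Difference of log2(scaled FPKM + 1) between KO and WT for each of the 45 genes in young (left) and old (right) cells, grouped by role, with the range within 1.5-fold shaded. All young differences lie inside the shading, and Fen1, Rpa1 and Gins3 lie outside it in old cells.

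The MCM subunits are the core of the origin licensing genes. Mcm5 stood at 101 (WT) and 93.5 (KO) in young cells and 91.1 (WT) and 84.5 (KO) in old cells. Mcm6 stood at 86.1, 80.3, 88.3 and 82.2 in that order. Mcm4 stood at 54.6, 53.9, 58.4 and 52.7. These are the highest 3 of the ring in each library, always in the order Mcm5, Mcm6, Mcm4. Mcm7 stood at 47.5, 40.5, 54.8 and 49.8. Mcm3 stood at 46.9, 46.6, 42.6 and 40.8. Mcm2 stood at 43.1, 44.7, 39.2 and 36.8. The highest subunit was between 2.29 and 2.35 times the lowest in every library, and the order of the lower 3 changed only in young KO, where Mcm7 was last. Mcm7 was 1.1004, 0.907, 1.397 and 1.35 times Mcm2, so these subunits shifted against each other. Mcm7 overlaps the listed genes Cops6 and Ap4m1, and the sources used here do not say whether reads were assigned by strand. The 6 summed to 379 (WT) and 360 (KO) in young cells and 374 (WT) and 347 (KO) in old cells.

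Of the loaders of the ring, Cdt1 alone reached the level of the ring. Cdt1, which brings the ring to the origin, stood at 63.5, 65.8, 52.3 and 49.2. Both old libraries were below both young ones for it. Orc1, the largest subunit of the origin recognition complex, stood at 6.28, 7.65, 7.05 and 5.41, and Cdc6, the loading ATPase, at 6.78, 7.91, 7.14 and 5.58. For both, young KO was the highest library and old KO the lowest. Orc6, another subunit of the complex, stood at 15.7, 18.4, 18.4 and 18.0, with young WT the low one. All 10 licensing genes lay below 0 in old KO against old WT, between -0.33 for Orc1 and -0.03 for Orc6, at a median of -0.11. They did so under each scaling. In that comparison 33 of all 45 members lay below 0, while 50.3% of all genes measured lay above it. In young cells 5 licensing genes lay on either side, and without scaling 3 lay above 0 and 7 below. None of the 10 passed 1.5-fold in either comparison.

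Helicase activation genes held one of the 3 members past 1.5-fold. Gins3, a subunit of GINS (ENSMUSG00000031669, chromosome 8, 95633559 to 95645059, mm10), stood at 5.90 (WT) and 7.06 (KO) in young cells and 7.92 (WT) and 4.76 (KO) in old cells. Old KO was the lowest library. Its difference from old WT was -0.63 on the log2 scale, and with a pseudocount of 5 this was -0.40 and within 1.5-fold. Its partners did not share the pattern. Gins2 stood at 3.89, 3.36, 4.40 and 6.04, with old KO the highest, and Gins4 at 19.9, 17.8, 27.1 and 29.7, with both old libraries above both young ones. Gins1 stood at 13.04, 9.34, 11.6 and 11.5, with young KO the low one. The 4 GINS subunits bind in equal numbers, and their levels spread 5.13-fold (WT) and 5.29-fold (KO) in young cells and 6.17-fold (WT) and 6.25-fold (KO) in old cells. Gins2 and Gins3 changed places in old KO.

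Cdc45, which joins GINS and the ring in the helicase, was higher in KO at both ages by the same amount. It stood at 19.9, 24.7, 19.5 and 24.2, a difference of 0.30 each time and inside 1.5-fold. Mcm10, which helps the helicase start, was among the most level members, at 6.79, 6.96, 7.27 and 7.19. Cdc45 overlaps Ufd1l and Gins2 overlaps Gse1.

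Polymerases and primase held no member past 1.5-fold in any comparison. Pola2, the regulatory subunit of polymerase alpha, stood highest in the group at 33.6, 35.0, 36.5 and 38.3. Prim2, the large primase subunit, stood lowest on average, at 10.7, 12.9, 12.7 and 15.0. It overlaps Gm37618, which stood at 6.32, 7.74, 5.67 and 4.98. Prim2 was higher in KO than in WT at both ages, by 0.24 and 0.23. Pole, the catalytic subunit of the leading strand polymerase, went the other way. It stood at 18.6 and 15.3 in young and at 17.5 and 13.8 in old WT and KO, with differences of -0.27 and -0.32. Its partner Pole2 stood at 24.8, 23.3, 19.7 and 16.8, with the old libraries the lower ones. Pola1, Prim1, Pold1 and Pold3 had a highest value between 1.08 and 1.26 times the lowest, and 8 of 8 members lay within 1.25-fold in both KO comparisons.

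The clamp, its loader and the enzymes that join the lagging strand held the single largest difference. Fen1, the flap endonuclease that removes primers from lagging strand pieces (ENSMUSG00000024742, chromosome 19, 10199132 to 10204169, mm10), stood at 8.91 (WT) and 7.69 (KO) in young cells and 18.7 (WT) and 7.12 (KO) in old cells. The old WT value was the high one, 2.63 times that of old KO, and the other 3 libraries lay close together. On the log2 scale Fen1 was -1.28 in old KO against old WT, 0.99 in old against young WT, -0.19 in young KO and -0.10 in old against young KO. The old WT library enters both large differences, so they are not separate evidence. Old WT was also the library with the highest sum of 12 plasma cell genes, 2725 against 112 to 864 in the others, mostly from Jchain, and the part of such cells in the Fen1 and Rpa1 values was not tested. Tmem258 overlaps Fen1 and stood at 5.10, 4.57, 5.16 and 4.44.

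Lig1 and Pcna, which act with Fen1, differed little. Lig1, the ligase that seals the same pieces, stood at 24.5, 23.2, 26.2 and 23.0. Pcna, the sliding clamp that holds both enzymes, stood at 81.7, 83.1, 75.0 and 85.6, with old WT the lowest. Rfc3, the lowest of the 4 clamp loader subunits measured, stood at 3.63, 3.82, 5.38 and 4.88, with both old libraries above both young ones. Rfc2 led the loader in every library, between 17.7 and 20.7, followed by Rfc4 and Rfc5. Rfc4 stood at 12.9, 14.4, 15.7 and 12.1, with a difference of -0.36 in old KO against old WT. It overlaps Eif4a2, which stood at 14.2, 17.4, 16.6 and 18.1. In all, 12 members overlap another listed gene, Rfc2, Rfc5, Lig1, Chaf1a and Orc1 among them.

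RPA, which coats single-stranded DNA, consists of 3 subunits in equal numbers, and in old WT alone Rpa1 ranked first. Rpa1, the largest subunit (ENSMUSG00000000751, chromosome 11, 75298166 to 75348324, mm10), stood at 13.4 (WT) and 13.3 (KO) in young cells and 21.9 (WT) and 13.1 (KO) in old cells. Like Fen1, it was high in old WT and level in the other 3 libraries. Its difference was -0.70 in old KO against old WT and 0.67 in old against young WT, while the differences in young KO and in old against young KO were both -0.01. Rpa2 stood at 19.0, 22.0, 17.5 and 17.3, and Rpa3 at 9.80, 7.17, 8.90 and 8.61. Neither was high in old WT. With a pseudocount of 5 the first difference of Rpa1 was -0.57, just within 1.5-fold.

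**Figure D3:**
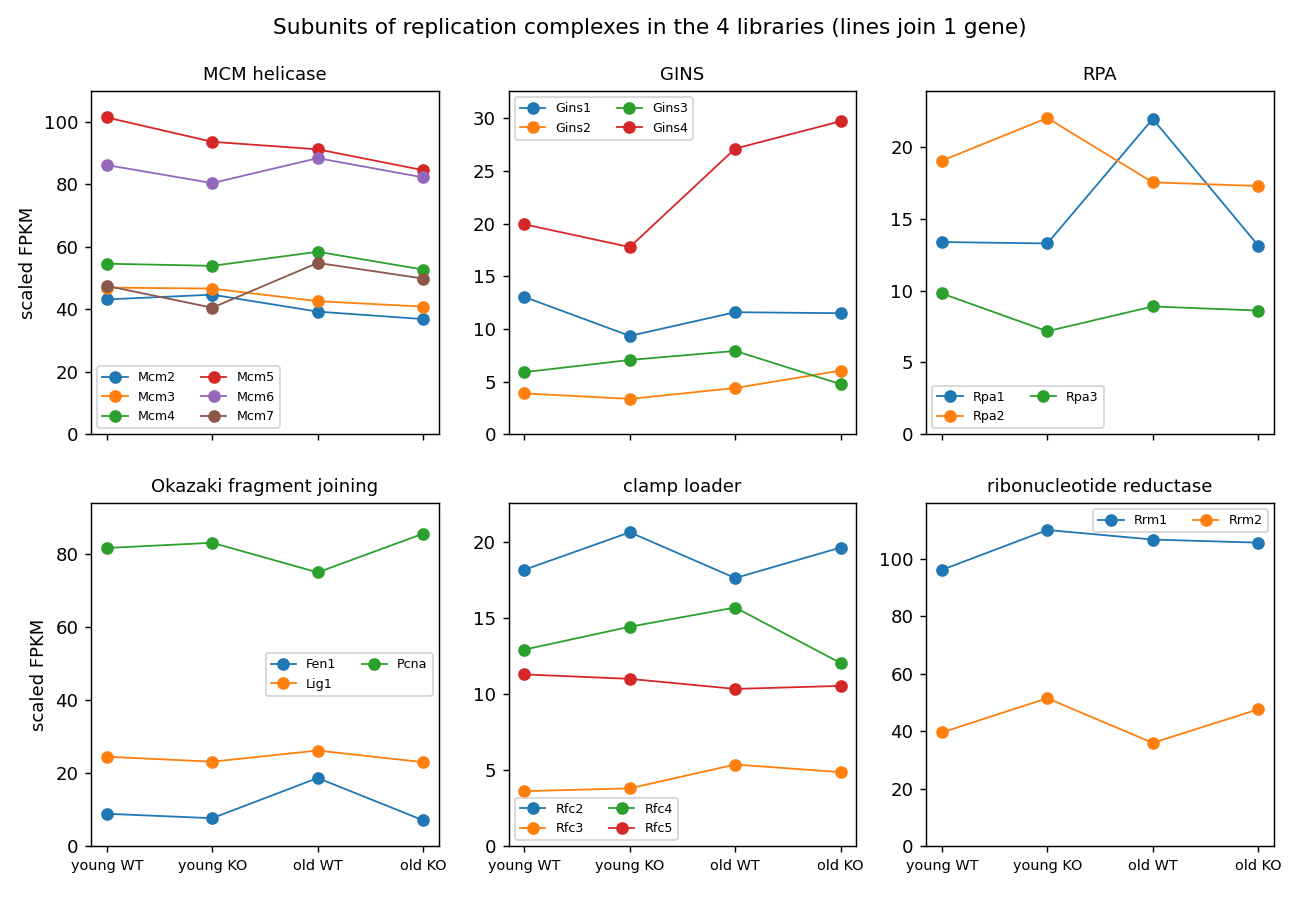
Scaled FPKM of subunits or partners of 6 replication complexes and steps in the 4 libraries, 1 value per library, with lines joining the values of a gene. Rpa1 and Fen1 are well above their other 3 values in old WT, and Mcm7 crosses Mcm2 and Mcm3 in young KO.

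Genes of nucleotide supply held no member past 1.5-fold in either KO comparison. In young KO all 5 lay above 0, where 50.5% of all genes measured did, between 0.06 for Tk1 and 0.37 for Rrm2 and at a median of 0.19. Without scaling 4 of 5 did, at a median of 0.077. In old KO 2 lay above 0 and 3 below, at a median of -0.01. All 20 erythroid genes were also higher in young KO, 19 of them past 1.5-fold, and the part of such cells in these values was not tested. Rrm1, the large subunit of ribonucleotide reductase, stood at 96.1, 110, 107 and 106 and was the highest member on average. Rrm2, its S phase partner, stood at 39.6 and 51.4 in young WT and KO and at 35.9 and 47.6 in old WT and KO. Both KO libraries thus lay above both WT libraries for Rrm2, by 0.37 and 0.40, inside 1.5-fold. Rrm1 was 2.43 and 2.97 times Rrm2 in young and old WT and 2.14 and 2.22 times in young and old KO.

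The other 3 genes of the group set the old libraries apart from the young, where age, sex and the time since pI-pC cannot be told apart. Both old libraries lay below both young ones for Tk1 and Tyms and above them for Dut. Tk1, thymidine kinase, stood at 11.3, 11.8, 8.80 and 7.32. Its difference was -0.63 in old against young KO, past 1.5-fold, and -0.33 in old against young WT. Tyms, thymidylate synthase, the lowest of the group, stood at 7.31, 8.74, 6.17 and 6.29. Dut, which removes dUTP, stood at 19.7, 22.4, 28.4 and 25.3. Tk1 overlaps Afmid and Gm20708, which were listed at no more than 2.09 in any library.

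Chromatin assembly and inheritance genes differed little between old KO and old WT. All 4 lay within 0.1 of 0 in old KO against old WT on the log2 scale, where 18 of all 45 members did. The share of all genes measured within 0.1 was not counted. Their median absolute difference was 0.19, against 0.05 for these 4 genes. In old against young WT the 4 ran from -0.03 to 0.20, at a median of 0.19. Chaf1b, a subunit of the histone chaperone CAF-1, stood at 8.18, 7.96, 8.00 and 8.15, and its highest value was 1.03 times its lowest, the narrowest span of all 45 members. Its partner Chaf1a stood at 30.5, 30.6, 35.3 and 33.3. Uhrf1, which directs the maintenance DNA methyltransferase to copied DNA, stood highest, at 49.0, 53.3, 55.7 and 54.8. Slbp, which binds the end of histone mRNA, stood lowest, at 5.54, 6.46, 6.50 and 6.88, with young WT the low one.

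Of the fork protection genes, Tipin, a partner of Timeless, stood at 32.5, 25.05, 42.2 and 35.2. It was lower in KO at both ages, with differences of -0.36 and -0.26, and higher in old than in young cells of each genotype. Clspn, which carries the checkpoint signal from stalled forks, stood at 6.47, 7.18, 8.02 and 6.84.

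The age comparisons asked how the members differed between old and young cells of one genotype, and each shares its libraries with the KO comparisons. Age, sex, the time since pI-pC and, in KO, the time since the deletion cannot be told apart in them. In WT, 2 of 45 members were 1.5-fold higher in old cells, Fen1 and Rpa1, and 0 were lower, where 9.93% and 5.88% of all 12569 genes measured were. In KO, 2 of 45 were higher, Gins4 at 0.71 and Gins2 at 0.69, and 1 was lower, Tk1, where 12.4% and 8.01% of all 12534 genes measured were. The members' medians were 0.09 in WT and -0.03 in KO, against -0.01 and -0.00 for all genes measured. Unscaled, the median of all genes in WT was -0.11 and that of the members -0.018, so relative to all genes it was 0.09 either way, and Rpa1 was at 0.57, within 1.5-fold.

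**Figure D4:**
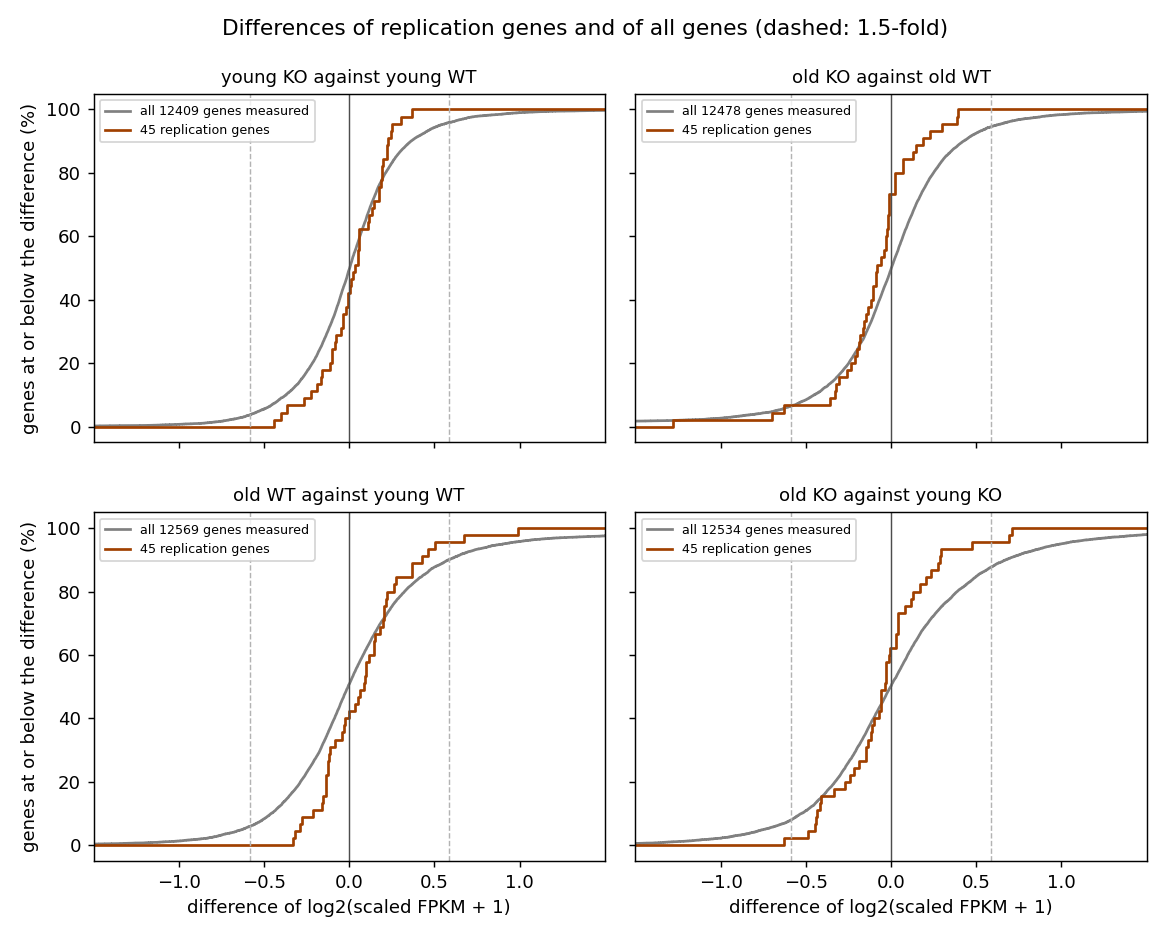
Cumulative share (%) of the 45 replication genes and of all genes measured at or below each difference of log2(scaled FPKM + 1), in 4 comparisons, with dashed lines at 1.5-fold. The curve of the replication genes is the steeper one around 0 in each panel, and in old KO against old WT it lies to the left of that of all genes near 0, with 33 of 45 members below 0.

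Over the 4 libraries together, 7 of 45 members (15.6%) had a highest value past 1.5-fold of their lowest on the log2 scale with the pseudocount: Fen1, Rpa1, Gins2, Gins3, Gins4, Tk1 and Tipin. Among 7893 genes listed in all 4 libraries and at 5 or more in at least 1, 32.9% did. The median span was 0.32 for the members and 0.43 for those genes. Leaving out old WT, young KO or old KO left 3 members each, and leaving out young WT left 7, where 26.8%, 25.9%, 22.6% and 26.7% of such genes did in the same order. Without old WT the 3 were Gins2, Gins4 and Tk1. Fen1 and Rpa1 were high in old WT alone, so their absence from these 3 follows from their values and is no separate result.

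The old WT library also differed from the others in markers of plasma cells, which secrete antibody. All 12 genes of that list were listed in old WT, with a summed level of 2725, of which Jchain alone gave 1891. In young WT 7 were listed, summing to 112, in young KO 8, summing to 200, and in old KO 11, summing to 864, of which Ighm gave 649. Of the 12 genes 11 were past 1.5-fold lower in old KO than in old WT, and Ighm was higher, at 649 against 490. Prdm1, Tnfrsf17, Ccr10 and Cd79a were listed in neither young library. The erythroid list, all 20 genes of which were listed in every library, summed to 471 (WT) and 1013 (KO) in young cells and 484 (WT) and 318 (KO) in old cells. These sums cover opposite differences within the list. In old KO against old WT 5 genes, Slc4a1 and the globin genes Hbb-bs, Hbb-bt, Hba-a1 and Hba-a2, were past 1.5-fold higher and 11 lower, and in old against young WT 6 were higher and 7 lower. Of 12 neutrophil genes, 6, 7, 12 and 12 were listed, summing to 752, 703, 967 and 1868, and Camp, Ltf, Ngp and S100a9 were listed in neither young library. All 8 monocyte genes were listed throughout, summing to 196, 161, 161 and 565. Of 8 B cell genes 1, 3, 3 and 6 were listed, and of 8 T and NK cell genes 3, 1, 3 and 6, with Ms4a1, Cd8a and Cd4 in no library. Of 8 stem cell genes all but Hoxb5 were listed, summing to 35.3, 38.8, 35.4 and 22.9, and megakaryocyte genes summed to 64.0, 61.5, 45.6 and 24.4. Old KO was thus the highest library for neutrophil and monocyte genes and the lowest for stem cell and megakaryocyte genes. The part of these cells in the differences of Gins3 and the licensing genes was likewise not tested.

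Of a further list of 40 replication genes, 0 were 1.5-fold higher and 1 lower in young KO, where 4.13% and 3.64% of all genes measured were. In old KO 0 were higher and 0 lower, where 5.51% and 6.48% of all genes were, and the list's medians were -0.01 and -0.02. In old against young WT 1 was higher (Rnaseh2c) and 2 lower (Cdc7 and Dctd), against 9.93% and 5.88% of all genes. In old against young KO 3 were higher (Gmnn, Pold4 and Nasp) and 2 lower (Orc5 and Dctd), against 12.4% and 8.01%. These age genes are named after their values were seen. The 1 lower in young KO was Pold4, the smallest subunit of polymerase delta, at 8.63 (WT) and 5.08 (KO) in young cells and 9.08 (WT) and 10.002 (KO) in old cells. Young KO was the low library for it. Among 21 regulators of the G1/S step, 1 was 1.5-fold higher and 1 lower (4.76% each) in young KO, and 0 and 1 in old KO, shares near those of all genes. Ccne1, the cyclin E1 gene, which drives entry into S phase, stood at 3.11, 6.69, 6.46 and 4.54, with young WT the low library. Tfdp2, a dimer partner of E2F factors, stood at 6.64, 3.82, 2.89 and 1.46. It was lower in KO at both ages, with differences of -0.67 and -0.66, and lower in old than in young cells of each genotype. The activating E2F factors did not share 1 direction in KO. The differences in young and old KO were -0.25 and -0.24 for E2f1, 0.21 and 0.08 for E2f2, and 0.01 and -0.25 for E2f3.

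The 16 members with E2F letters all lay below 0 in old KO, between -0.63 for Gins3 and -0.01, with a median of -0.13. There 33 of all 45 members lay below 0, while 50.3% of all genes measured lay above it. Genes outside the members that hold these letters were not compared. Of the 21 members with a window and no such letters 13 lay below 0, and they ran from -1.28 for Fen1 to 0.40 for Rrm2, with a median of -0.02. In young KO the medians of the 2 sets were 0.02 and 0.06. The difference between the sets was not tested. Their levels differed too, with a median of the mean level of 22.7 with the letters and 15.4 without, and 7 of the 16 were licensing genes.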

How the data were processed

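RNA from 4 LSK samples was sequenced, 1 per genotype and age, starting with 100 ng each according to the labels' protocols. The 2 bisulfite samples were not analysed here. The deposited files give 1 FPKM per gene, per the file headers, and list only genes at 0.5 or more. The submitters' processing notes name mm10 (GRCm38), HISAT2 2.0.4 and StringTie 1.3.0 among other tools, with no role or order. Strand and annotation are not given in the sources used here. Genes missing from a file were given 0.5.

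Values were divided by median-of-ratios factors over 10935 genes at 1 or more in all libraries (1.06, 0.981, 0.982 and 0.979, with young before old and WT before KO). Differences are of log2(scaled FPKM + 1), and a gene was measured in a comparison at 1 or more in at least 1 of its 2 libraries. With 1 library per group, no p-value is given, and called means past 1.5-fold. Steps ran in Python 3.11.15 with numpy 2.4.6 and pandas 2.3.3 and were tested on simulated data.

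Depth was read from genes with loci under 1500 bp and fewer than 20 steps. Of such values 61.6% and 62.9% (young WT and KO) and 70.0% and 73.3% (old WT and KO) lay within 0.02 steps of a whole multiple. A counted unit was taken as the wider spacing in young and the finer in old libraries, so the lower error of the old ones rests on that choice.

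The members and lists were chosen with earlier results of these data known. Named with their 4 values were, by rule, members past 1.5-fold in a KO or 2-fold in an age comparison, the highest and lowest of each role, and Mcm2 to Mcm7. Pathway genes past 1.5-fold in KO were named too. Cdt1, Cdc6, Orc6, Gins1, Cdc45, Mcm10, Pole, Pole2, Lig1, Rfc4, Rrm2, Tk1, Dut, Chaf1a, Chaf1b, the E2f genes and the mitosis genes were added after their values were seen. Alternatives were other scalings, pseudocounts, filters and unlisted genes at 0.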

Additional observations from a re-analysis of the deposited data

How the results depend on the processing

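The counts of members past 1.5-fold and their medians were recomputed without scaling, with upper-quartile scaling, with pseudocounts of 0.1 and 5, with no minimum level and a minimum of 5, and with unlisted genes at 0. Without scaling the members' median was -0.071 in young KO against WT and -0.018 in old against young WT. The medians of all genes moved with them, to -0.099 and -0.11, so the members' medians relative to all genes stayed at 0.03 and 0.09. Without scaling 1 member was higher in old than in young WT. With a pseudocount of 5, 1 member was lower in old KO against old WT, 1 was higher in old against young WT, and 1 was higher and 0 lower in old against young KO. That pseudocount left 3 members spanning 1.5-fold over the 4 libraries. Leaving out 1 library at a time gave 3 to 7, and all alternatives for this span were added after the data were seen. Of 668 recomputed differences of the 24 members named by rule, 5 that were past 1.5-fold came within it, 48 that were within it moved by over 0.1 (39 without scaling, 9 with a pseudocount of 5), and the other 615 moved by less or stayed past 1.5-fold. In 11 of the 668 the sign changed (6 without scaling, 5 with upper-quartile scaling), Mcm2, Pcna and Pola2 in young KO without scaling among them, and 0 of these were past 1.5-fold. No paired analysis was possible because each group has 1 library. Depth limits the low members, where counting alone gives about 10.5% at an FPKM of 5 in young KO.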

Other observations

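Mitosis genes, which act after replication is complete, lay differently from the replication genes in the same libraries. In old KO against old WT all 20 genes of a mitosis list lay above 0, at a median of 0.20, where 50.3% of all genes measured did. Of the 45 replication genes 12 did, at a median of -0.08. In young KO 18 of the 20 mitosis genes lay above 0, at a median of 0.27, where 50.5% of all genes measured did. The replication genes gave 26 of 45 and 0.03. On the log2 scale with the pseudocount none of the 20 passed 1.5-fold in either comparison. As plain ratios of old KO to old WT, Aurka and Ube2c were just past it. Aurka, a kinase of spindle assembly, stood at 13.3 and 19.998 in young WT and KO and at 14.4 and 21.8 in the old pair. Ube2c, which helps degrade cyclins at the end of mitosis, stood at 3.75, 5.44, 4.12 and 6.37. Both were chosen after their values were seen. The difference between the lists was not tested, since each group has 1 library. The part of other cell types in it was not tested either.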
